A study of Mus musculus with 16 samples.

Results

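Bile acids are made from cholesterol in hepatocytes, conjugated there and secreted into bile, and most of them return to the liver with portal blood. The classic route of synthesis starts with Cyp7a1, the rate-limiting cholesterol hydroxylase, and the acidic route with Cyp27a1, a mitochondrial sterol hydroxylase, followed by Cyp7b1, an oxysterol hydroxylase, whose transcript is more abundant in male than in female mouse liver. Cyp8b1, a sterol hydroxylase, sets the share of cholic acid. Slc27a5 (bile acid CoA ligase) and Baat (bile acid amino acid N-acyltransferase) conjugate bile acids, Slc10a1 (the uptake transporter NTCP) takes them up from blood, Abcb11 (the bile salt export pump) secretes them into bile, and Nr0b2 (the small heterodimer partner) is a repressor induced through the bile acid receptor FXR. The chromatin around these 9 genes was examined in 4 lists of DNase hypersensitive sites (DHS) from mouse liver. A DHS is a stretch of open chromatin in which DNase I releases short fragments, and such sites mark promoters, enhancers and insulators. All peaks that overlapped a gene or its surroundings up to 20 kb on each side were taken, on mouse genome build mm9 with the GENCODE M1 annotation, and peaks of different lists sharing 1 bp or more were merged as a region. This gave 67 regions, made of 200 peaks, of the 51482 regions in the whole data set.

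The 4 lists come from male and female C57BL/6J (B6) mice, the strain of the reference genome, and male and female CAST/EiJ (CAST) mice, a wild-derived inbred strain of the subspecies Mus musculus castaneus. The mice were 8 weeks of age, no treatment or engineered allele is given in their labels, and 32 units of DNase I were used on their liver nuclei. Each list pools 4 of the 16 libraries. There is therefore 1 list for each sex and strain, no spread between mice can be given, and no test was possible: counts that compare the lists stand beside the same count over all regions of the genome, and intervals beside ratios are 95% exact binomial intervals that cover counting error only.

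The lists held 38751 (male B6), 26271 (female B6), 39562 (male CAST) and 24888 (female CAST) peaks. Depth was read from the background of the peaks, the number of reads expected at a summit: its most frequent value in a list, called the genome-wide background here, was 15.3 and 13.9 in male and female B6 liver and 14.2 and 7.94 in male and female CAST liver. For cell type markers a promoter region was any region within 1 kb of the start site. The hepatocyte genes Alb, Ttr and Tat had one in all 4 lists, Apoa1 in both male lists only, and Serpina1c in none. Markers of Kupffer cells (4 genes), bile duct (3 genes), B and T cells (2 genes), and muscle and brain (3 genes) had no promoter region in any list. Among 3 endothelial and 3 stellate cell markers, Lyve1 and Clec4g had a weak promoter region in male B6 liver alone (fold enrichment 2.17 and 2.38) and Reln in every list but female CAST. As for the sex labels, the start sites of the Y-linked Eif2s3y, Kdm5d, Ddx3y and Uty were in the male B6 list alone, neither CAST list held a peak on chromosome Y, and the start site of Xist was in the female B6 list alone. The sex labels of the CAST lists thus could not be checked with these genes, and the comparisons of the CAST sexes rest on the labels. The female B6 list also held 15 weak peaks on chromosome Y, all at sites where the male B6 list had a peak, with 4.70% to 8.94% of its pileup.

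Regions that carry the results below are shown first, as up to 300 bases of the B6 reference sequence centred on the strongest summit, written 5′ to 3′ on the strand of the gene, with start-site windows ending at or before the start site. Capitals mark exact matches, on either strand, to the letters searched: CAAGGTC (LRH-1), CAAAGTCC (HNF4A), TGTTTAC (FOXA), GTTAATNNT (HNF1), TTGCGCAA and TTGCNNAAT (C/EBP), TTCNNNGAA (STAT5) and AGGGGGC (CTCF). An FXR element was searched as AGGTCA followed by TGACCT with 1 base between them and at most 1 mismatch, and the LRH-1 letters share AGGTC with it. The start sites of Cyp8b1, Abcb11 and Nr0b2 are shown because they were open in every list and belong to an enzyme, the exporter and the repressor at the centre of the pathway.
Cyp8b1 start site, chr9:121825424-121825629, minus strand: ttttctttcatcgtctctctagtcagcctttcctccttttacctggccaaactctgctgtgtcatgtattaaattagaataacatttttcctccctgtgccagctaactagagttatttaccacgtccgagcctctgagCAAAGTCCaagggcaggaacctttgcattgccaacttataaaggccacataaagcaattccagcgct
Abcb11 start site, chr2:69180755-69181054, minus strand: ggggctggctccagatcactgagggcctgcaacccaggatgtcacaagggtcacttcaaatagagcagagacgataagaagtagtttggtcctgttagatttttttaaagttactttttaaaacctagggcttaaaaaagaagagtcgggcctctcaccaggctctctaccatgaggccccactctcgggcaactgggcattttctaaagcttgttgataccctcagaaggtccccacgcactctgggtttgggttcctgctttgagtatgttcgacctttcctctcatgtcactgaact
Nr0b2 start site, chr4:133108834-133109133, plus strand: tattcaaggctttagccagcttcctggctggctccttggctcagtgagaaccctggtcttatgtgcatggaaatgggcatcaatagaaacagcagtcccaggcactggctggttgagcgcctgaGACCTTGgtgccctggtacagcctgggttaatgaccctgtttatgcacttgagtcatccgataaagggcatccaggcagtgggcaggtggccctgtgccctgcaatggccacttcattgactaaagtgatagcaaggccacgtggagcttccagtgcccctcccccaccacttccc

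The next sequences differed in presence or strength between the sexes or strains. The Cyp7b1 sites 11.1 and 7.9 kb upstream of the start site and the Slc27a5 site 1.0 kb upstream were chosen after their values were seen. The others were found in both lists of 1 sex or 1 strain only. In the male lists they had the highest fold enrichment of their kind, apart from a CAST site over a UTR exon that is not shown.
Cyp7b1 upstream 11.1 kb, chr3:18154315-18154614, minus strand: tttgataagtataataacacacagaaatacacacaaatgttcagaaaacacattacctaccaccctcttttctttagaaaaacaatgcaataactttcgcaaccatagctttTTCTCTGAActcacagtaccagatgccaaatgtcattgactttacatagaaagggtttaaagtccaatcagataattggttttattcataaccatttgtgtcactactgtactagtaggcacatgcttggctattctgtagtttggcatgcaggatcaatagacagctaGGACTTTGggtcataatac
Cyp7b1 upstream 7.9 kb, chr3:18151071-18151370, minus strand: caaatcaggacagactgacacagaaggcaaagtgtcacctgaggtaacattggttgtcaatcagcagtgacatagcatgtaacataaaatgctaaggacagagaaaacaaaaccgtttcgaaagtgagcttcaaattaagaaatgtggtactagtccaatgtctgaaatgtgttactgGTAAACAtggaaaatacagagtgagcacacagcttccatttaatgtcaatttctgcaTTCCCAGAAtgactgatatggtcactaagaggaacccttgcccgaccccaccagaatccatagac
Cyp7b1 intron, both male lists only, chr3:18039909-18040208, minus strand: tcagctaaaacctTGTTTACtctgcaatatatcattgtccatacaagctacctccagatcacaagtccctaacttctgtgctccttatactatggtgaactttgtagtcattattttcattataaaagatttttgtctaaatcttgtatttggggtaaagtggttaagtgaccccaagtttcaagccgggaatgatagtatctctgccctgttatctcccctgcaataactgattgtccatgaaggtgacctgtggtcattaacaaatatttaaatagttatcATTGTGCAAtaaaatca
Slc27a5 upstream 1.0 kb, higher in CAST, chr7:13584399-13584698, minus strand: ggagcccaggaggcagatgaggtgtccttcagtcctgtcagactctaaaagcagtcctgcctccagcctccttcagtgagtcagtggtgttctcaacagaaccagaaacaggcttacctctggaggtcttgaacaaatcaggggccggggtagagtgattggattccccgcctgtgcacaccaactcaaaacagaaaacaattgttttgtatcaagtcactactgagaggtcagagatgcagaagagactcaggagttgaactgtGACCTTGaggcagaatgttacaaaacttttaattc
Baat upstream 2.9 kb, both CAST lists only, chr4:49522142-49522441, minus strand: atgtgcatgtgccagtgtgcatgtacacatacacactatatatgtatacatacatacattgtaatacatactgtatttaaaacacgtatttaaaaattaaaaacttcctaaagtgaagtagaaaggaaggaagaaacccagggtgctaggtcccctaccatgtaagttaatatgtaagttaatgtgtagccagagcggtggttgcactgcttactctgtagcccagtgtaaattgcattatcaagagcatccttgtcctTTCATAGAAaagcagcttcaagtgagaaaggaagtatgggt
Baat downstream, both B6 lists only, chr4:49491497-49491796, minus strand: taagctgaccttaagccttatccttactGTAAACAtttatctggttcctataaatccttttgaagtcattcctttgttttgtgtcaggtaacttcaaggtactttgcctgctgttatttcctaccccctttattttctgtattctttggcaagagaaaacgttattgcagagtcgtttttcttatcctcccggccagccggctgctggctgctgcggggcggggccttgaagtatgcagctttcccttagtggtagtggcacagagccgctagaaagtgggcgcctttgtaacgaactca

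All 9 start sites were open in all 4 lists, compared with 76.7% of all start-site regions, so no promoter of the 9 genes was confined to a sex or strain in these lists. At a threshold of 5 on -log10 q, 8 of the 9 were in all 4 lists. With lists cut to equal size there were 8 by -log10 q and 7 by fold enrichment. The strength of a peak is its fold enrichment, the summit pileup (reads over the summit) against a local background. The study's methods name input DNA as the background of peak calling, and the lists do not show from which reads the local background was taken. The Abcb11 start site, at chr2:69180414-69181155, was the strongest of the 9, with a fold enrichment of 15.8 in males and 11.4 in females of B6 and of 17.3 and 15.3 in those of CAST, which placed it between percentiles 99.4 and 99.8 of its list. The Nr0b2 start site (chr4:133108284-133109530) reached 8.60, 7.04, 7.66 and 8.72 in that order of lists (male B6, female B6, male CAST, female CAST). That of Cyp27a1 (chr1:74759201-74760598) reached 8.84, 5.73, 10 and 7.08, and that of Cyp7a1 (chr4:6202568-6203318) 7.40, 4.97, 7.82 and 6.99. These 4 genes thus had promoters in the upper part of every list, at percentile 79.6 or above.

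The start sites of the other 5 genes were modest. In the order male B6, female B6, male CAST and female CAST, fold enrichment was 4.33, 2.86, 3.80 and 3.10 at Baat (chr4:49519087-49520243), and 3.21, 2.66, 4.70 and 2.92 at Slc10a1 (chr12:82068651-82069859). Slc27a5 (chr7:13582824-13583860) had 3.19, 3.03, 3.39 and 2.88. The start sites of these conjugation and uptake genes lay between percentiles 16.4 and 63.6 of their lists. Cyp8b1 (chr9:121825136-121825719) had 3.69, 2.67, 2.79 and 2.37, the last at percentile 2.86 of the female CAST list, and Cyp7b1 (chr3:18142813-18143975) had 2.95, 2.87, 3.08 and 3.49.

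**Figure D1:**
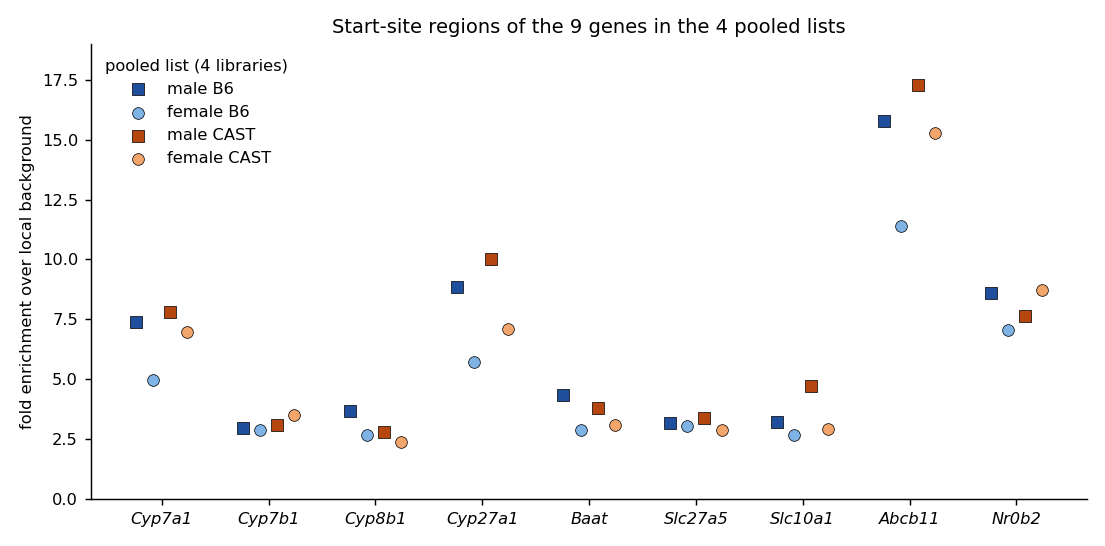
Fold enrichment over local background (y axis) of the region over the start site of each of the 9 genes (x axis) in the 4 pooled lists; each point is 1 list and there is no error bar because each list pools its 4 libraries. Abcb11 lies between 11.4 and 17.3 in every list, whereas Cyp7b1 lies between 2.87 and 3.49.

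For each gene the site away from its start with the highest median percentile over its lists was taken. This choice favours a value above that of the start site, because the highest of several regions was set against a fixed region. The same comparison was not made at other genes, and which gene such a site acts on was not tested. At Slc10a1, Nr0b2, Slc27a5, Baat, Cyp8b1 and Cyp7b1 the site so chosen had a higher fold enrichment than the start site in every list. At Cyp7a1 and Abcb11 the chosen site was lower in every list. That of Slc10a1, 8.3 kb upstream at chr12:82076715-82077713 in intergenic DNA, had a fold enrichment of 14.3, 11.7, 13.2 and 12 in male B6, female B6, male CAST and female CAST, against 2.66 to 4.70 at the start site. For Nr0b2 it lay 10 kb downstream of the start site (chr4:133118950-133119713, intergenic) with 12.2, 8.01, 13.9 and 11.7. Both sites were at or above percentile 95.6 of every list. In an intron of Cyp27a1 (chr1:74767799-74768871) it had 6.29, 4.67, 8.57 and 7.63, above the start site in female CAST liver only. At Slc27a5 it was the start site of the neighbour Zfp446 (chr7:13562889-13563901), with 10, 8.75, 12 and 9.99. The sites so chosen at Cyp7a1 (29.4 kb downstream of the start), Baat (21.1 kb downstream), Cyp8b1 (an intron of the neighbour Ccbp2), Cyp7b1 (an intron 80.5 kb downstream) and Abcb11 (a coding exon of the neighbour G6pc2) ranged from 2.96 to 6.84 in fold enrichment, and all were in all 4 lists.

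By position, 9 of the 67 regions were start sites of the members and 6 were start sites of neighbours (Mrpl50 and Zfp189, Zbtb45, Zfp446, Srsf5, Nudc, and Gpatch3), and all 15 of these were in all 4 lists. Of 10 regions in other exons 2 were in all 4 lists, of 16 in introns 7 (43.8%), and of 26 in intergenic DNA 11 (42.3%). Over all regions the same shares were 76.7% for start sites, 24.9% for other exons, 22.5% for introns and 25.8% for intergenic DNA, so start sites were the class most often shared in the whole data set too. Pileups at some start sites differed, as given for Cyp7b1, Cyp8b1 and Cyp27a1. At that of Slc10a1 they were 105 and 58 reads in B6 males and females and 157 and 45 in those of CAST, and the ratio of CAST over B6 males, divided by that of a typical region, was 1.55 (95% interval of the counts 1.20 to 2.00) by pileup and 1.39 (1.08 to 1.79) by fold enrichment.

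**Figure D2:**
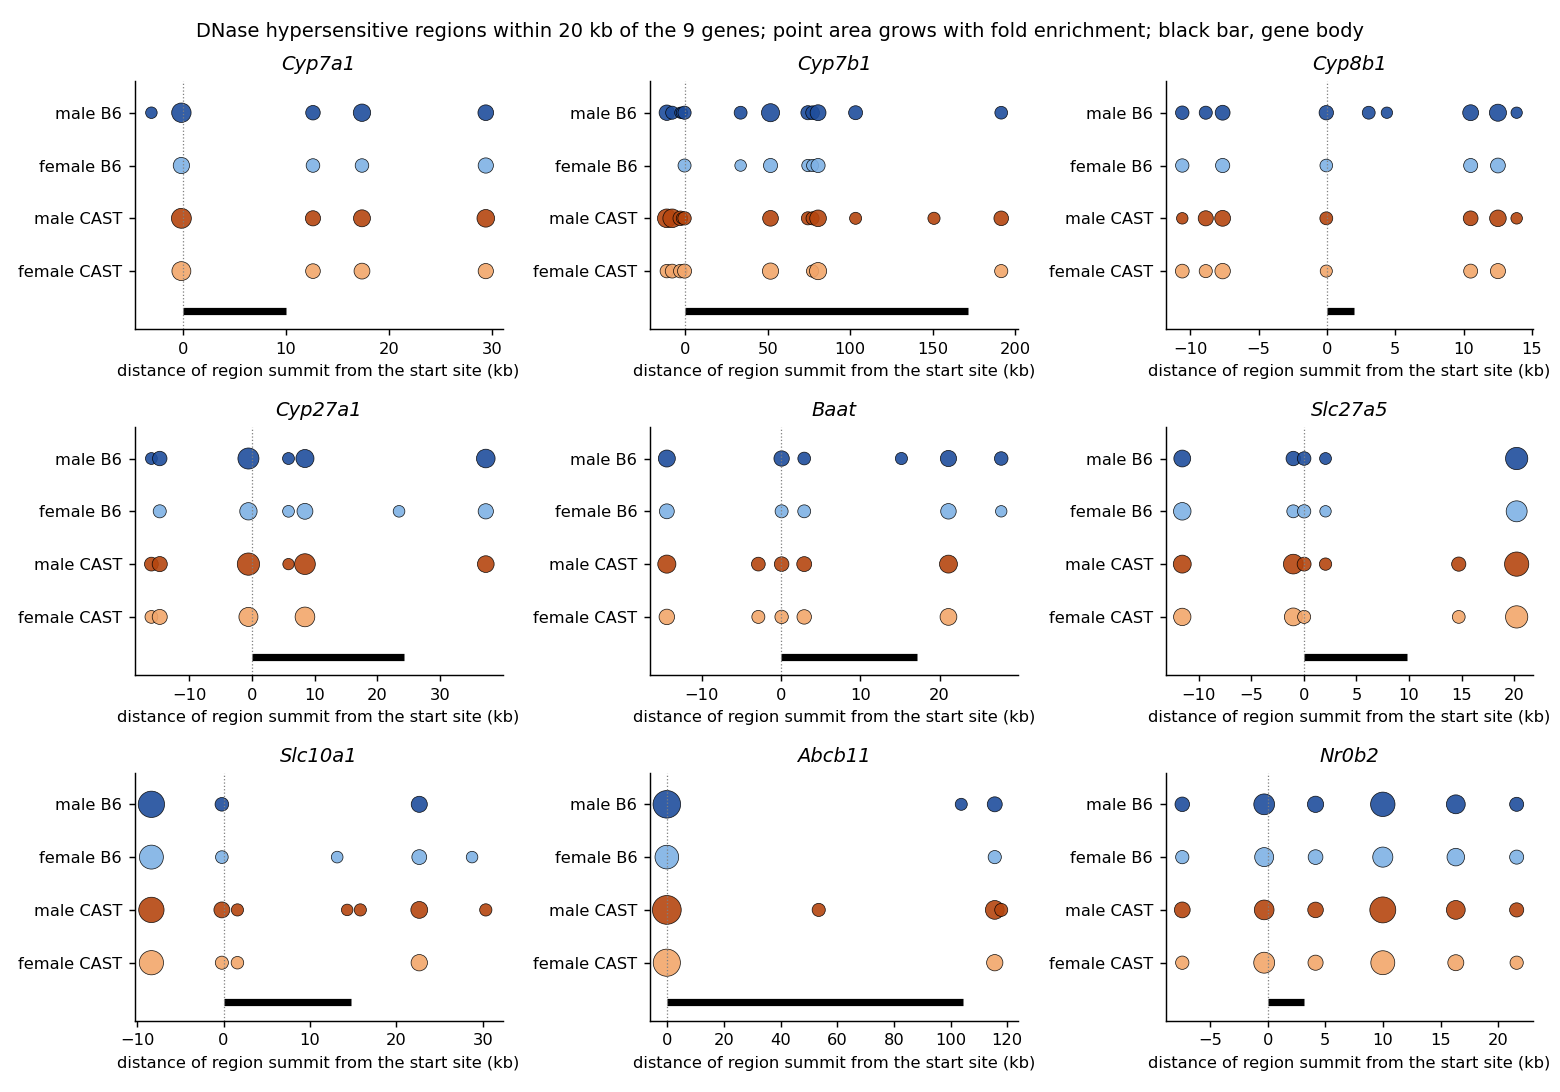
Position of each region's summit relative to the start site of its gene in kb (x axis, negative values upstream in the direction of transcription) in each of the 4 pooled lists (rows); the point area grows with fold enrichment and the black bar is the gene body. Nr0b2 shows the same 6 regions in every list, whereas the female B6 row of Cyp7b1 holds 6 of its 13 regions.

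Regions at the 9 genes were shared by all lists at a higher rate than regions of the genome as a whole, a difference that has no replicate check. In all 4 lists stood 35 of the 67 regions (52.2%), compared with 35.6% of all regions, 38.1% of those within 20 kb of any protein-coding gene and 42.9% of those at 32 other bile acid genes. Regions of a single list numbered 14 (20.9%, compared with 35.2% of all regions and 24.9% at the other bile acid genes), and none of them exceeded a fold enrichment of 2.94. Shared by both male lists and absent from both female lists were 3 regions (4.48%, compared with 9.38%). No region was shared by the female lists only (0.0622% of all regions). Both B6 lists only held 2 regions (2.99%, compared with 3.32%) and both CAST lists only held 3 (4.48%, compared with 3.62%). Absent from female B6 liver alone were 6 regions (8.96%, compared with 4.73% of all regions and 8.16% of those at the other bile acid genes). Of these, 4 lay at Cyp7b1, which had 13 of the 67 regions.

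**Figure D3:**
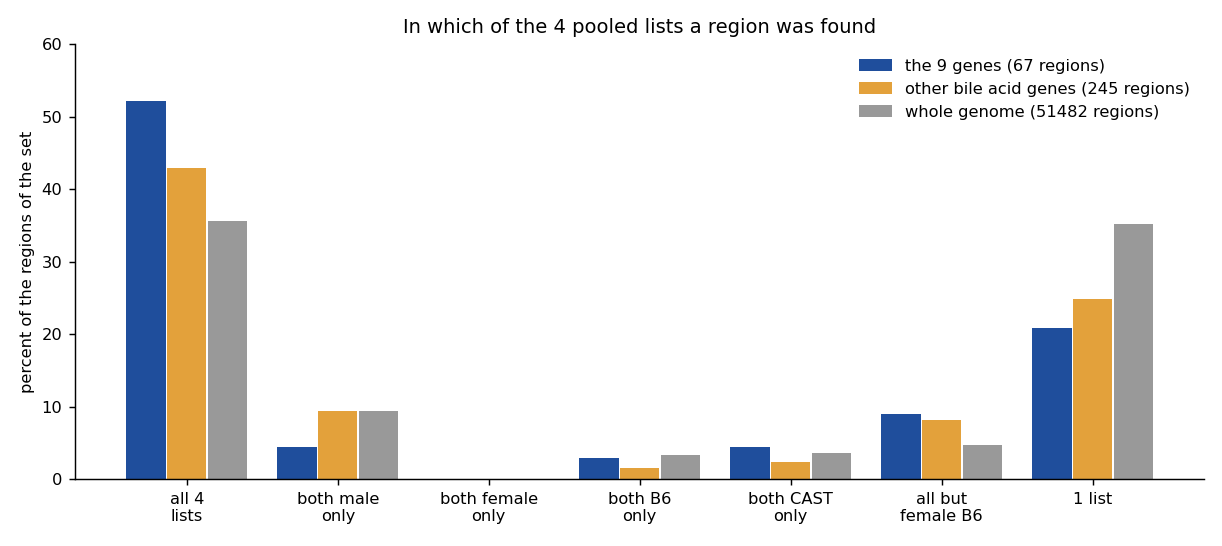
Percent of regions (y axis) by the lists in which they were found (x axis), for the 67 regions at the 9 genes, the 245 at the other bile acid genes and all 51482 regions. The bars of the 9 genes are 52.2% for all 4 lists and 20.9% for a single list, compared with 35.6% and 35.2% of all regions; combinations not drawn make up the rest.

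Between the genes, Nr0b2 had the highest share, with 6 regions that were all in all 4 lists (35.6% of all regions were). Some windows hold start sites of neighbours, and 76.7% of all start-site regions were in all 4 lists, so the counts per gene also depend on the neighbours. Cyp7a1 had 4 of 5 in all 4 lists, Slc27a5 4 of 6, Baat 4 of 7, Cyp8b1 5 of 9, Cyp27a1 3 of 7, Abcb11 2 of 5, Slc10a1 3 of 9 and Cyp7b1 4 of 13. The fifth Cyp7a1 region, 3.0 kb upstream, was in the male B6 list alone with a fold enrichment of 2.06. Slc10a1 had 5 regions of a single list, 3 in male CAST and 2 in female B6 liver, with fold enrichments between 2.06 and 2.44.

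Comparison of the sexes within B6 asked which sites were open in 1 sex. Of 58 regions in either B6 list, 14 were in the male list and not in the female list (24.1%, compared with 36.4% of all regions), and 3 in the female and not in the male list (5.17%, compared with 5.13%). Of those 14, 10 lay at Cyp7b1 and Cyp8b1, which held 12 and 9 of the 55 regions in the male B6 list. Genes with more regions can hold more of these. The 14 were weak sites: their median fold enrichment in male B6 liver was 2.35 and the highest 4.36, whereas the 41 regions in both lists had a median of 4.54. Over all regions the corresponding medians were 2.53 and 4.76. The 3 regions in the female list only were a coding exon of Cyp27a1 and 2 sites at Slc10a1, with a fold enrichment of at most 2.14.

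For regions in both lists, the ratio of fold enrichments was divided by the median ratio of all shared regions of the genome, which was 1.32 for male over female B6, 1.19 for male over female CAST, 1.06 for CAST over B6 males and 1.19 for CAST over B6 females. A centred ratio of 1 is thus that of a typical region, and a region was counted as higher past a factor of 1.5. The same was done with the summit pileups, whose genome-wide median ratios were 1.84, 2.50, 0.966 and 0.735, because the fold enrichment also depends on the local background. In B6, none of the 41 shared regions was past 1.5-fold in fold enrichment in either direction (2.62% of all regions were higher in males and 2.60% in females), and the median centred log2 ratio was -0.03. By pileup, 3 were higher in males (3.41% of all regions) and none in females (8.28% of all regions). They were the start site of Cyp8b1, with pileups of 169 reads in male and 57 in female B6 liver (centred ratio 1.61, interval 1.19 to 2.21), the start site of Cyp27a1, with 321 and 112 reads (1.56, interval 1.25 to 1.95), and an intronic site of Cyp7b1 at chr3:18091344-18092135, with 156 and 55 reads (1.54, interval 1.13 to 2.14).

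In CAST, 13 of 57 regions were in the male list and not in the female list (22.8%, compared with 40.3% of all regions) and none in the female list and not in the male (3.90% of all regions). The lists differ in length, and the counts moved when they were made equal. With every list reduced to the size of the shortest by fold enrichment, CAST had 1 region in males only (2.22%, compared with 16.1% of all regions) and 5 in females only (11.1%, compared with 14.6%). By -log10 q it had 4 (8.33%, compared with 14.9%) and 3 (6.25%, compared with 13.6%). In B6 the regions in males only were then 7 by -log10 q (14.9%, compared with 14.3% of all regions) and 4 by fold enrichment (9.52%, compared with 15.4%), and those in females only were 2 by either measure (4.26%, compared with 13.1%, and 4.76%, compared with 14.2%). Of the 44 shared regions, 2 were past 1.5-fold higher in males in fold enrichment (3.31% of all regions), both upstream of Cyp7b1, and 1 was higher in females (2.56% of all regions). By pileup, 3 were higher in males (4.22% of all regions), all upstream of Cyp7b1, and 1 in females (6.92% of all regions). The site higher in females lay 10.6 kb upstream of Cyp8b1 (chr9:121835647-121836218, intergenic). It had a fold enrichment of 3.13 and 3.08 in B6 males and females and of 2.05 and 3.31 in CAST males and females, so the male CAST list was the low value, at 0.519 times the female CAST value after centring (interval 0.342 to 0.792).

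Cyp7b1 held 6 of the 14 regions found in male and not in female B6 liver, and 12 of the 55 in the male B6 list. The gene spans chr3:17971950-18143338 on the minus strand, and 12 of its 13 regions were in the male B6 list, 6 in the female B6, 12 in the male CAST and 8 in the female CAST list. Upstream of the start site lay 4 intergenic regions, and the female B6 list held none of them. The first, 11.1 kb upstream (chr3:18154231-18154864), holds the stretch that the study amplified by qPCR at this gene (chr3:18154514-18154564). Its fold enrichment was 4.36 in B6 males, 6.79 in CAST males and 3.12 in CAST females. The second, 7.9 kb upstream (chr3:18150968-18151587), had 2.89, 6.74 and 3.35 in the same lists. The third, 3.0 kb upstream (chr3:18146080-18146733), had 1.85, 3.81 and 3.15. The fourth, 2.0 kb upstream (chr3:18145155-18145494), was in both male lists only, with 1.97 and 1.93. The male CAST list was thus the highest at the first 3 sites and did not exceed male B6 at the fourth.

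The pileups at these sites differed more. At the site 11.1 kb upstream they were 94 reads in B6 males, 287 in CAST males and 37 in CAST females. At 7.9 kb they were 74, 369 and 50 reads. At 3.0 kb they were 61, 243 and 59 reads, and at 2.0 kb 59 reads in male B6 and 105 in male CAST. Corrected for the genome-wide ratio, male CAST exceeded female CAST 3.10-fold (interval 2.2 to 4.50) at 11.1 kb, 2.95-fold (2.19 to 4.05) at 7.9 kb and 1.65-fold (1.24 to 2.23) at 3.0 kb. Male CAST exceeded male B6 3.16-fold (2.50 to 4.03), 5.16-fold (4.01 to 6.72), 4.12-fold (3.10 to 5.55) and 1.84-fold (1.33 to 2.58) at the 4 sites in order of distance. At the start site, pileups were 89 and 43 reads in B6 males and females and 174 and 61 in those of CAST, and the centred sex ratio was 1.12 (0.773 to 1.66) in B6 and 1.14 (0.848 to 1.55) in CAST. There the strain ratio of pileups was 2.02 (1.56 to 2.64) in males and 1.93 (1.29 to 2.92) in females, whereas that of fold enrichment was 0.987 (0.760 to 1.29) and 1.02 (0.681 to 1.55), with a local background of 29.5 reads in male B6 and 55.9 in male CAST.

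The local background moved with these pileups. At the 4 upstream sites it was between 20.8 and 32.5 reads in male B6 and between 41.4 and 63.0 in male CAST liver, so the ratios of fold enrichment were smaller. Male CAST exceeded male B6 by this measure 1.48-fold (1.17 to 1.88) at 11.1 kb, 2.21-fold (1.72 to 2.87) at 7.9 kb and 1.95-fold (1.47 to 2.63) at 3.0 kb, and the ratio at 2.0 kb was 0.929 (0.669 to 1.30). The ratio of male over female CAST was 1.83 (1.29 to 2.65) at 11.1 kb, 1.69 (1.26 to 2.32) at 7.9 kb and 1.02 (0.763 to 1.38) at 3.0 kb, so the last differed between the CAST sexes by pileup only. The smallest pileup called at the 9 genes was 29 reads in the female B6 list, so a site with fewer reads could be missed there. As a weak check on depth, all pileups were scaled to the genome-wide background of the shallowest list. That background was 15.3 in male and 13.9 in female B6, whereas the pileup of a typical shared region differed 1.84-fold between them, so most of that difference remained after scaling. The sites 11.1 and 7.9 kb upstream remained in male B6, male CAST and female CAST, and the site 2.0 kb upstream in both male lists only. The site 3.0 kb upstream was then in the 2 CAST lists only, as it was at a threshold of 5 on -log10 q and with lists of equal size by either measure. The site 11.1 kb upstream was absent from female B6 liver alone also at a threshold of 5 on -log10 q and with lists of equal size by either measure. That at 7.9 kb was so too, but was not in the male B6 list with lists of equal size by fold enrichment. The site 2.0 kb upstream was in male CAST liver alone at the threshold of 5 and in no list with lists of equal size.

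**Figure D4:**
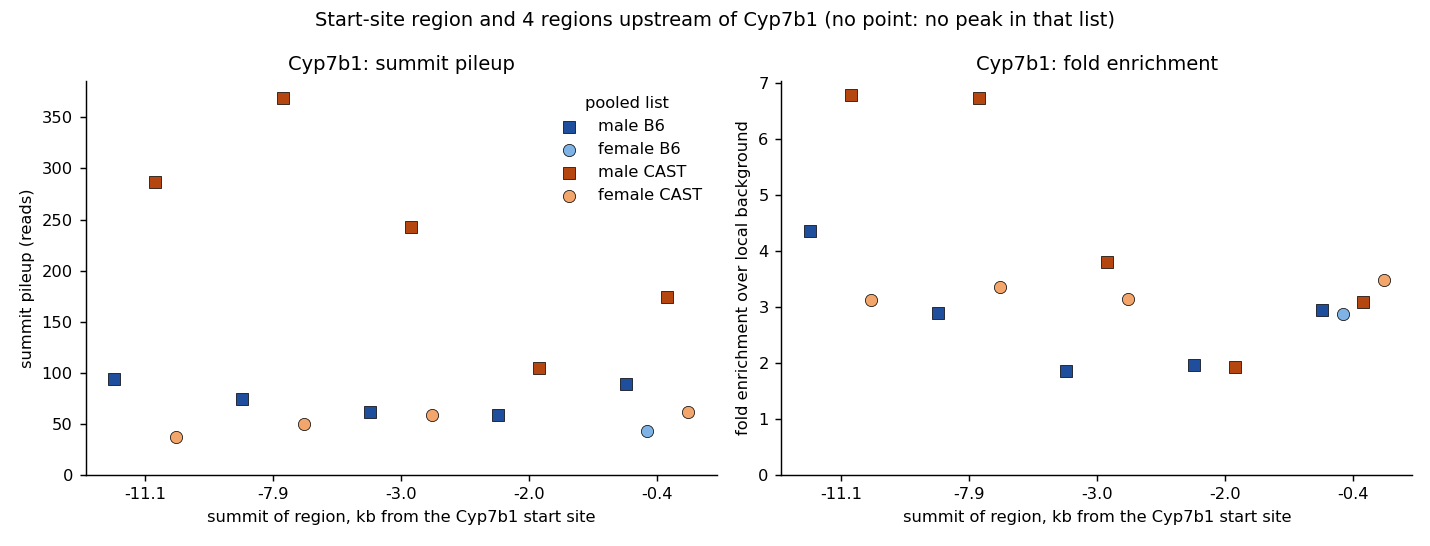
Summit pileup in reads (left) and fold enrichment over local background (right) of the Cyp7b1 start-site region and the 4 regions upstream (x axis, summit position in kb from the start site) in the 4 pooled lists; a missing point means that the list held no peak. The male CAST list reaches 369 reads at the site 7.9 kb upstream, where female CAST has 50 and male B6 has 74, and female B6 has a point at the start site only.

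Within and beyond the gene, an intronic site 103.3 kb downstream of the start (chr3:18039451-18040206) was in both male lists only, with a fold enrichment of 3.41 in male B6 and 2.32 in male CAST liver and pileups of 67 and 48 reads. A site 191.5 kb downstream (chr3:17951447-17952022, intergenic) was again absent from female B6 liver alone, with 2.70, 3.83 and 2.95 in male B6, male CAST and female CAST. The third region found in both male lists only was a site in the window of Cyp8b1 that overlaps a UTR exon of Ccbp2 (chr9:121811219-121811649), with 1.96 and 2.06. With lists of equal size by either measure, none of the 3 was in both male lists.

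Comparison of the strains asked which sites differed with genetic background. In males, 9 of 64 regions were in the CAST list and not in the B6 list (14.1%, compared with 20.9% of all regions) and 7 in the B6 and not in the CAST list (10.9%, compared with 19.1%). In females, 9 of 53 were in CAST only (17%, compared with 18.3%) and 9 in B6 only (17%, compared with 22.6%). Of the former, 4 lay at Cyp7b1, which held 8 of the 44 regions in the female CAST list. Of 48 regions shared by the males, 4 were past 1.5-fold higher in CAST in fold enrichment (6.68% of all regions), 2 of them upstream of Cyp7b1 and 1 each at Slc27a5 and Abcb11, and 2 in B6 (4.49% of all regions), at Cyp7b1 and Cyp8b1. Of 35 shared by the females, 1 was higher in CAST (4.97% of all regions) and none in B6 (3.42% of all regions). By pileup, 10 of 48 were higher in CAST males (11.6% of all regions), 6 of them at Cyp7b1, and 6 in B6 males (7.93% of all regions), 5 of them at Cyp8b1. In females, 4 of 35 were higher in CAST by pileup (8.67% of all regions) and none in B6 (6.63% of all regions).

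The only region past the threshold in fold enrichment in both sexes lay 1.0 kb upstream of Slc27a5 (chr7:13584097-13584959, intergenic), 1 of 35 regions in all 4 lists (2.86%) compared with 2.18% of all such regions and 5.71% at the other bile acid genes. Its fold enrichment was 3.73 and 2.80 in B6 males and females and 7.64 and 6.11 in CAST males and females, so both CAST values lay above both B6 values. The centred ratio of CAST over B6 was 1.94 in males (interval 1.58 to 2.39) and 1.84 in females (1.34 to 2.55). Its pileups were 144, 65, 285 and 102 reads in the same order of lists. The start site next to it did not follow, with a centred ratio of 1.01 (0.780 to 1.30) in males and 0.799 (0.545 to 1.16) in females. In the B6 reference this window holds 1 match to the LRH-1 letters, the binding motif of Nr5a2, and the CAST sequence was not read.

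Cyp8b1 showed the opposite direction in males. By pileup, 5 of the 7 regions shared by the male lists were past 1.5-fold higher in B6. At the start site the pileup was 169 and 57 reads in B6 males and females and 65 and 28 in CAST males and females, so male B6 was the high value, and the centred ratio of CAST over B6 was 0.398 (interval 0.294 to 0.533) in males and 0.669 (0.409 to 1.07) in females. The 2 sites in the intron of Ccbp2 had 279 and 327 reads in B6 males, 107 and 119 in B6 females, 137 and 177 in CAST males, and 54 and 68 in CAST females, with ratios in males of 0.508 (0.411 to 0.626) and 0.560 (0.464 to 0.675). The local background was higher in male B6 than in male CAST at all 7 shared regions. In fold enrichment only the site 10.6 kb upstream was past the threshold, and the start site had a ratio of 0.718 (0.531 to 0.961). Male B6 alone also held 2 further sites 3.0 and 4.4 kb downstream of the start site, with pileups of 130 and 92 reads and fold enrichments of 2.79 and 1.98.

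**Figure D5:**
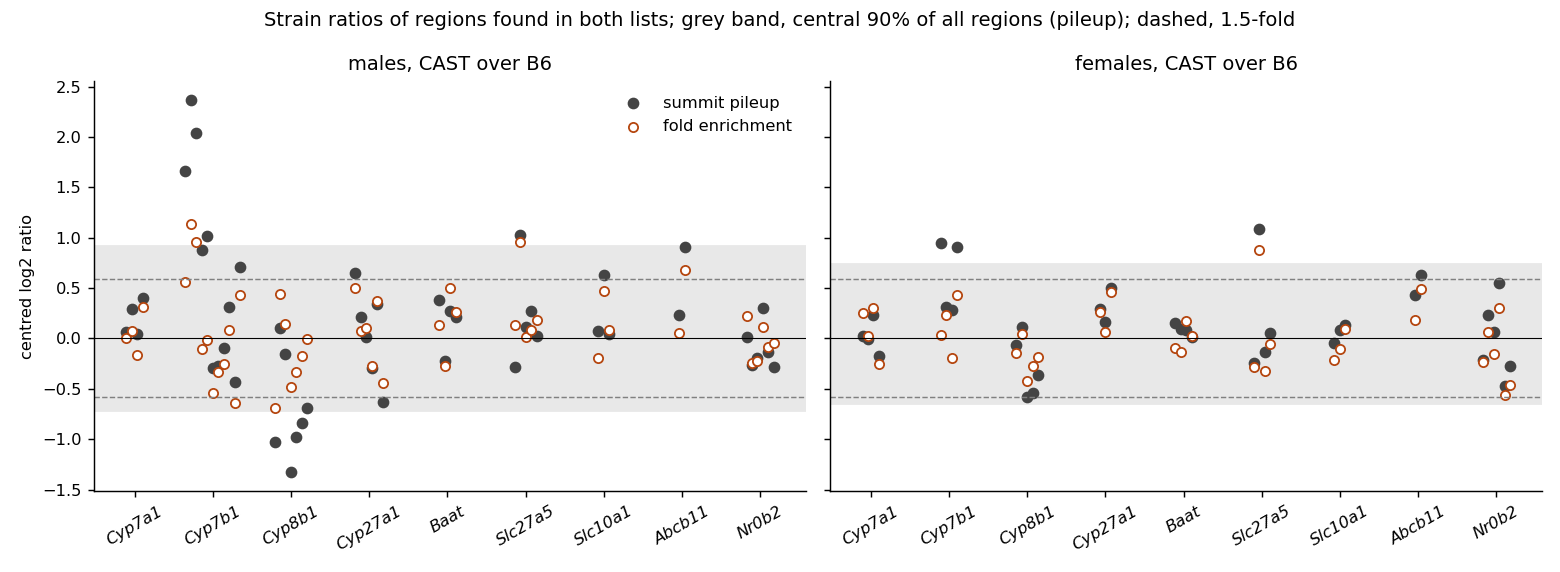
Centred log2 ratio of CAST over B6 (y axis) for each region found in both lists of the same sex, by gene (x axis), from summit pileups (filled) and from fold enrichment (open); the grey band is the central 90% of all regions by pileup and the dashed lines mark 1.5-fold. In males, Cyp7b1 reaches 2.37 and Cyp8b1 reaches -1.33 by pileup, both outside a band from -0.72 to 0.92.

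Regions of 1 strain in both sexes were few and of low to moderate strength. In both CAST lists only, a site 2.9 kb upstream of Baat (chr4:49521949-49522470, intergenic) had a fold enrichment of 3.30 in males and 2.86 in females. A site over a UTR exon of Zfp446, in the window of Slc27a5 (chr7:13568575-13569157), had 3.57 and 2.75, and the intronic site of Slc10a1, 1.6 kb downstream of its start (chr12:82067008-82067528), had 2.41 and 2.59. In both B6 lists only, an intronic Cyp7b1 site 33.6 kb downstream of the start (chr3:18109518-18110031) had 2.79 in males and 2.08 in females, and a site downstream of Baat (chr4:49491077-49491816, intergenic) had 3.18 and 2.01. In the male lists these 5 sites lay between percentiles 15.1 and 47.0. In the female lists they were lower, at percentiles 15.9, 12.3 and 7.74 for the CAST sites and 3.10 and 1.58 for the B6 sites. Neither B6 site was in the female B6 list at a threshold of 5 on -log10 q, with depth scaled or with lists of equal size. The CAST site over the Zfp446 exon was not in the female CAST list at that threshold, and the Slc10a1 site not in the male CAST list with lists of equal size by either measure.

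At the exporter, the Abcb11 start site had pileups of 541, 234, 612 and 231 reads in male B6, female B6, male CAST and female CAST, and its 4 centred fold-enrichment ratios lay between 0.951 and 1.13. The site 115.6 kb downstream of its start, over a coding exon of G6pc2 (chr2:69064461-69065494), had a fold enrichment of 4.06, 2.96, 6.84 and 4.95. Its ratio of CAST over B6 was 1.60 in males (interval 1.23 to 2.09) and 1.41 in females (0.954 to 2.09), past the threshold in males only, and the difference between the sexes was not tested. At the Nr0b2 start site the pileups were 691, 305, 559 and 262 reads and the fold-enrichment ratios lay between 0.738 and 1.04. The interval of the counts excluded 1 for male over female CAST (0.738, interval 0.636 to 0.858) and for CAST over B6 in males (0.844, 0.753 to 0.945), both within the threshold, and included 1 for the others. These intervals hold no spread between mice. The start site of Cyp7a1 had pileups of 229, 114, 230 and 85 reads and ratios between 0.940 and 1.19, and every interval of the 4 included 1.

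Width and summit position were close to those of all regions. Peaks were wider in the male list at 31 of 41 shared regions in B6 and 34 of 44 in CAST, compared with 19223 of 23644 and 19866 of 22764 of all regions. CAST peaks were wider than B6 peaks at 24 of 48 regions in males and 16 of 35 in females, compared with 13735 of 29099 and 7517 of 18601 of all regions. The summits of the 4 lists lay within 100 bp of each other in 19 of the 35 regions in all 4 lists (54.3%, compared with 54.5% of all such regions). At the Cyp7a1 start site they spanned 26 bp and at the Slc10a1 site 8.3 kb upstream 29 bp, whereas at the Cyp7b1 start site they spanned 554 bp.

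Of the letters searched in the 300 bp around each summit, those of LRH-1 (Nr5a2, which activates Cyp7a1 and Cyp8b1) were in 8 of the 67 regions (11.9%, compared with 6.78% of all regions), and those of HNF4A (a hepatocyte factor that also acts on both genes) in 6 (8.96%, compared with 3.37%). FOXA letters were in 7 (10.4%, compared with 6.58%), C/EBP in 7 (10.4%, compared with 5.29%), STAT5 in 8 (11.9%, compared with 10.2%), CTCF in 3 (4.48%, compared with 6.51%) and HNF1 in 2 (2.99%, compared with 4.65%). The FXR repeat was in none (0.305% of all regions), which says only that these letters were not in these windows. Among the sequences shown, the Nr0b2 start site held the LRH-1 letters and the Cyp8b1 start site the HNF4A letters, whereas the Abcb11 start site held none. The Cyp7b1 sites at 11.1 and 7.9 kb, absent from female B6 liver alone, held STAT5 letters and also those of HNF4A and FOXA, respectively. Of the other 6 regions with STAT5 letters, 3 were in all 4 lists, 2 in both CAST lists only (the Baat site shown among them) and 1 in male CAST liver alone, and none of the 3 regions of both male lists held them. A match is a description of the letters and not evidence of binding.

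The other 32 bile acid genes were described in the same way. Of these, 31 had at least 1 region within 20 kb, all but Ch25h, for a total of 245 distinct regions, and 19 had a promoter region in all 4 lists. A promoter region here need not cover the start site, so this count is not comparable with that of the 9 start sites. Of the 245 regions, 23 were in both male lists only (9.39%, compared with 9.38% of all regions), at 15 genes. None was in both female lists only, 4 were in both B6 lists only (1.63%, compared with 3.32%) and 6 in both CAST lists only (2.45%, compared with 3.62%). Of 105 regions in all 4 lists, 6 were past 1.5-fold higher in CAST in both sexes in fold enrichment (5.71%, compared with 2.18% of all such regions). The highest number of regions of 1 sex or strain at 1 gene was at Atp8b1, a phospholipid flippase of the canalicular membrane, with 5 of 17 regions, of which 4 were in both male lists only and 1 in both CAST lists only. Nr5a2, the gene of LRH-1, followed with 4 of 17, of which 3 were in both male lists only. The others named by number had 2 each, of 20 regions at Scp2, 14 at Abcc2, 11 at Abcb4, 10 at Abcc3, 10 at Ephx1 and 9 at Akr1d1. Genes with more regions can hold more of these, and the 1 region of Slc51a was in both male lists only. A pair of male sites was chosen after their values were seen, a site near Ephx1 (epoxide hydrolase, chr1:182967748-182968269) with a fold enrichment of 5.38 in male B6 and 5.57 in male CAST, and an intronic site of Scp2 (a peroxisomal thiolase, chr4:107803080-107803679) with 6.27 and 3.08. The last value lay below the median of 3.74 of the male CAST list. Of 3 genes of the ileum, Slc10a2 had 4 regions, Fgf15 had 1 and Fabp6 had none.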

How the data were processed

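DNase-seq of liver nuclei was analysed from 4 peak lists on mm9. Per the study's methods, the authors mapped unique reads with Bowtie2, B6 reads to mm9 and CAST reads to a CAST genome made with g2gtools whose coordinates were then converted back to mm9, pooled 4 libraries per sex and strain, called peaks with MACS2 and removed blacklisted regions. For each peak the authors deposited the fold enrichment (a ratio of summit pileup to local background, with a pseudocount of 1 in each), the -log10 p-value and -log10 q-value, a score derived from the q-value, and another column that holds the summit position. The score was not used, and the q-value entered only alternatives. The deposited lists hold no columns of single mice, and the largest deposited q-values lie at the threshold of 0.05.

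Summit pileups, in reads, were recovered from the fold enrichment and the -log10 p-value, and at least 99.9% of the peaks of each list gave a whole number within 0.02. Peaks were joined at 1 bp of overlap. Regions were taken within 20 kb of each gene. Ratios between lists were centred on the median of all regions in both lists, with 95% exact binomial intervals on the pileups that take the background as fixed. PCR reads are not independent molecules, so these cover counting error only. Steps were tested on simulated data. Python 3.11.15, numpy 2.4.6, pandas 2.3.3, scipy 1.17.1 and matplotlib 3.10.9 were used.

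The genes, gene lists, motifs and comparisons were chosen with earlier results of these data known. Named were, for each gene, the region over the start site, the other region with the highest median percentile, every region of 1 sex or strain only in both lists, regions past 1.5-fold in both strains or both sexes, and the region of the Cyp7b1 qPCR amplicon. The other bile acid genes named are those with the most regions of 1 sex or strain, and other regions were chosen after their values were seen. Regions of CAST and B6 were compared on mm9 after the conversion of coordinates, and the part of mapping to different genomes in the differences was not tested. The sequence of 1 start site chosen for display is not reported here.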

Additional observations from a re-analysis of the deposited data

How the results depend on the processing

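No paired analysis was possible because the libraries of each sex and strain were pooled before peaks were called, so no replicate could be left out either. Of 72 recomputed counts, 53 stayed within 1.5 times the reported count, and counts are given below with their share and that of all regions where the window changed. The median centred log2 sex ratio ranged from -0.08 to 0.13 in B6 and from -0.04 to 0.08 in CAST, with a change of sign by pileup in both and at 10 kb (0.01) in B6. The median strain ratio ranged from 0.01 to 0.07 in males and from 0.02 to 0.08 in females. The regions in male and not in female B6 liver went from 14 to 7 with lists of equal size by -log10 q, 4 by fold enrichment and 25 with a window of 50 kb (27.2%, compared with 36.4% of all regions). In CAST they went from 13 to 4, 1 and 22 (25.6%, compared with 40.3%). Female-only regions went in B6 from 3 to 0 at a threshold of 5 on -log10 q (1.87% of all regions) and to 1 with depth scaled to the shallowest list (1.82%, compared with 3.95%). In CAST they went from 0 to 1 at that threshold (1.85%, compared with 1.23%) and to 1 at 50 kb (1.16%, compared with 3.90%). With lists of equal size the CAST count was 3 by -log10 q (6.25%, compared with 13.6%) and 5 by fold enrichment (11.1%, compared with 14.6%). The order of the sexes in CAST thus turned with lists of equal size by fold enrichment, whereas over all regions males kept the higher share (16.1%, compared with 14.6%). Regions in B6 and not in CAST females went from 9 to 4 at the threshold of 5 (9.30%, compared with 19.1%), 5 and 3 with lists of equal size (10.2%, compared with 19.9%, and 6.38%, compared with 20.3%), and 4 with depth scaled (8.33%, compared with 19.4%). With 50 kb, those of males went from 7 to 17 for B6 (16.7%, compared with 19.1%) and from 9 to 14 for CAST (13.7%, compared with 20.9%), and the regions in all 4 lists from 35 to 53 (50.0%, compared with 35.6%). Lists of equal size and a wider window change what is counted by construction. Of the 8 regions of 1 sex or strain, 6 remained such with depth scaled, 4 at the threshold of 5 and 2 with lists of equal size by either measure, and 8 under both other ways of joining peaks. The Cyp8b1 start site was in 3 lists at the threshold of 5 and with lists of equal size, and that of Cyp7b1 in 3 with equal lists by fold enrichment. The intronic Cyp7b1 site of both male lists had a centred log2 ratio of CAST over B6 of -0.64 by fold enrichment and -0.43 by pileup, within the threshold, and the cause was not tested. The female CAST list was the shallowest, so an absent peak there may be below detection.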
